A study of Homo sapiens with 3 samples.

Results

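The replication-dependent histone genes were taken as the protein-coding genes with GENCODE release 44 symbols H1-1 to H1-6, or with symbols that start with H2AC, H2BC, H3C or H4C followed by a digit. The rule used names only and no measured value. It found 70 of the 62754 genes in the deposited table, of which 6 code for the linker histone H1, 17 for H2A, 19 for H2B, 13 for H3 and 15 for H4. RNA was sequenced from 3 replicates of MCF10A, a human breast epithelial cell line that is immortalized but not tumorigenic, and the libraries were made from total RNA after removal of ribosomal RNA. All 3 replicates carried an empty, doxycycline-inducible retroviral vector, were selected with puromycin, received no doxycycline and belonged to batch 1, so the data hold 1 condition and no groups to compare. The labels do not say that the replicates came from separate cultures, so their spread may be technical.

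Histones H2A, H2B, H3 and H4 form the protein core around which DNA is wrapped in a nucleosome, and histone H1 binds the DNA that enters and leaves it. Replication-dependent histone genes are transcribed mainly in S phase, when a dividing cell has to package its newly copied DNA. They lie in clusters, have few or no introns, and give the only known cellular mRNAs of animals that end in a conserved hairpin (stem-loop) instead of a poly(A) tail. The stem-loop binding protein SLBP and the U7 small nuclear ribonucleoprotein direct the cleavage that forms this end. Because the mRNAs lack a poly(A) tail, libraries selected with oligo(dT) largely miss them, whereas libraries depleted of ribosomal RNA keep them.

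The hairpin is shown here because it sets these mRNAs apart from other mRNAs and because, among the 70 genes, its stem differed between H4 and the other types. A stem of 6 bases that starts with GG, a loop of 4 bases and the matching stem that ends with CC was searched in the 100 bases after the stop codon on hg38. An exact hairpin was found in 67 of 70 genes, 2 more had 1 mismatch in the stem, and H2BC12L had none. Among 19849 other genes an exact hairpin was found in 55, or 0.277%, and a hairpin with up to 1 mismatch in 3.41%. The hairpins of the 69 genes took only 10 sequences, which are given below 5′ to 3′ as DNA with the loop in capitals.
Shared by 40 genes of H1, H2A, H2B and H3, among them H1-2 (chr6:26055744-26055759, minus strand): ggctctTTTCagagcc
Shared by 9 genes of the same types, among them H1-1, H2BC7 and H3C8: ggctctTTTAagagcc
Shared by 10 genes, all of H4, among them H4C3 (chr6:26104317-26104332, plus strand): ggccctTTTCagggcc
Shared by H4C9, H4C12, H4C14 and H4C15: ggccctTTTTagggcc
H4C13: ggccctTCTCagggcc
H2AC20: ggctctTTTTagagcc
H2BC10: ggctctTCTAagagcc
H3C6: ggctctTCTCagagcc
H2AC11, with 1 mismatch in the stem: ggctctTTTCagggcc
H2AC15, with 1 mismatch in the stem: ggttctTTTCagagcc
The stem of all 15 H4 genes was ggccct, and among the 70 genes no exact hairpin of another type had it. Outside the rule, H2AX, a variant of H2A, had this stem too, so it is not particular to H4. The hairpin began 23 to 68 bases after the stop codon, with a median of 36. Of the histone genes outside the rule that were searched, H2AX and H3-4 had an exact hairpin, whereas H3-3A, H3-3B, H2AZ1, H2AZ2, H1-10, H2AJ, MACROH2A1, CENPA and H3-5 had none.

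The genes fell into blocks on a few chromosomes. On hg38, 55 of the 70 lie on the short arm of chromosome 6, at 6p22. There, H2AC1 and H2BC1, a pair known from testis, come at chr6:25723397-25727345, and are followed by the first block, of 32 genes at chr6:26017032-26285638, the second block, of 5 genes at chr6:27125897-27147562, and the third block, of 16 genes at chr6:27807479-27893891. Chromosome 1 holds 11 genes at 1q21 (chr1:149782689-149887965) and 2 genes at 1q42 (chr1:228434777-228463104). H4C16 lies on chromosome 12 (chr12:14767999-14771131) and H2BC12L on chromosome 21 (chr21:43565182-43565648). All 6 H1 genes are on chromosome 6.

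Values were deposited as TPM, that is, as reads per base of transcript, scaled to a total of 1000000 for each replicate. Levels can therefore be compared between genes per length. Low values were whole multiples of a step once GENCODE lengths were applied, and if a step is 1 read, the libraries held 15273329, 15446347 and 11166546 reads. For a transcript of 400 bases, about the length of an H4 mRNA, 1 TPM then corresponded to 2.11, 2.17 and 1.79 reads. Replicate 3 was the shallowest library and stood apart: protein-coding genes took 73.6% of its TPM, against 85.5% and 84.1% in replicates 1 and 2, and RN7SL1, the RNA of the signal recognition particle, reached 150630 TPM there against 49293 and 56610 TPM. All 6 markers of basal-like breast epithelium were expressed, among them KRT5 at 6612 ± 890 TPM (SD, n = 3). Of the luminal markers KRT8 and KRT18 were expressed and the hormone receptor genes ESR1 and PGR were at 0.0345 and 0.00485 TPM. Of 7 fibroblast, leukocyte and endothelial markers, 2 were above 1 TPM, COL1A1 at 4.96 TPM and PECAM1 at 1.77 TPM.

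The replication-dependent histone genes were among the most abundant protein-coding transcripts of these cells. Their TPM summed to 28613 in replicate 1, 33715 in replicate 2 and 34089 in replicate 3, or 3.21% ± 0.306 of all TPM (SD, n = 3). Replicate 1 was the lowest, and replicates 2 and 3 were close to each other on this scale, but with TPM rescaled to nuclear protein-coding genes the sums were 33477, 40107 and 46324, with replicate 3 well above replicate 2. Of the 70 genes, 55 had a mean of at least 1 TPM, against 56.6% of the 20033 nuclear protein-coding genes, and 45 had a mean of at least 100 TPM, against 7.8%. The 10 genes above 1000 TPM made up 42.7% ± 1.83 of the summed TPM. Among nuclear protein-coding genes ranked by mean TPM, 12 of the 100 highest and 42 of the 500 highest were replication-dependent histone genes. Of 13 annotated pseudogenes of the same families, only H2AC5P was above 1 TPM, with a mean of 4.89 TPM. Since these are bulk libraries, a smaller share of cells in S phase and less histone mRNA per cell cannot be told apart.

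**Figure D1:**
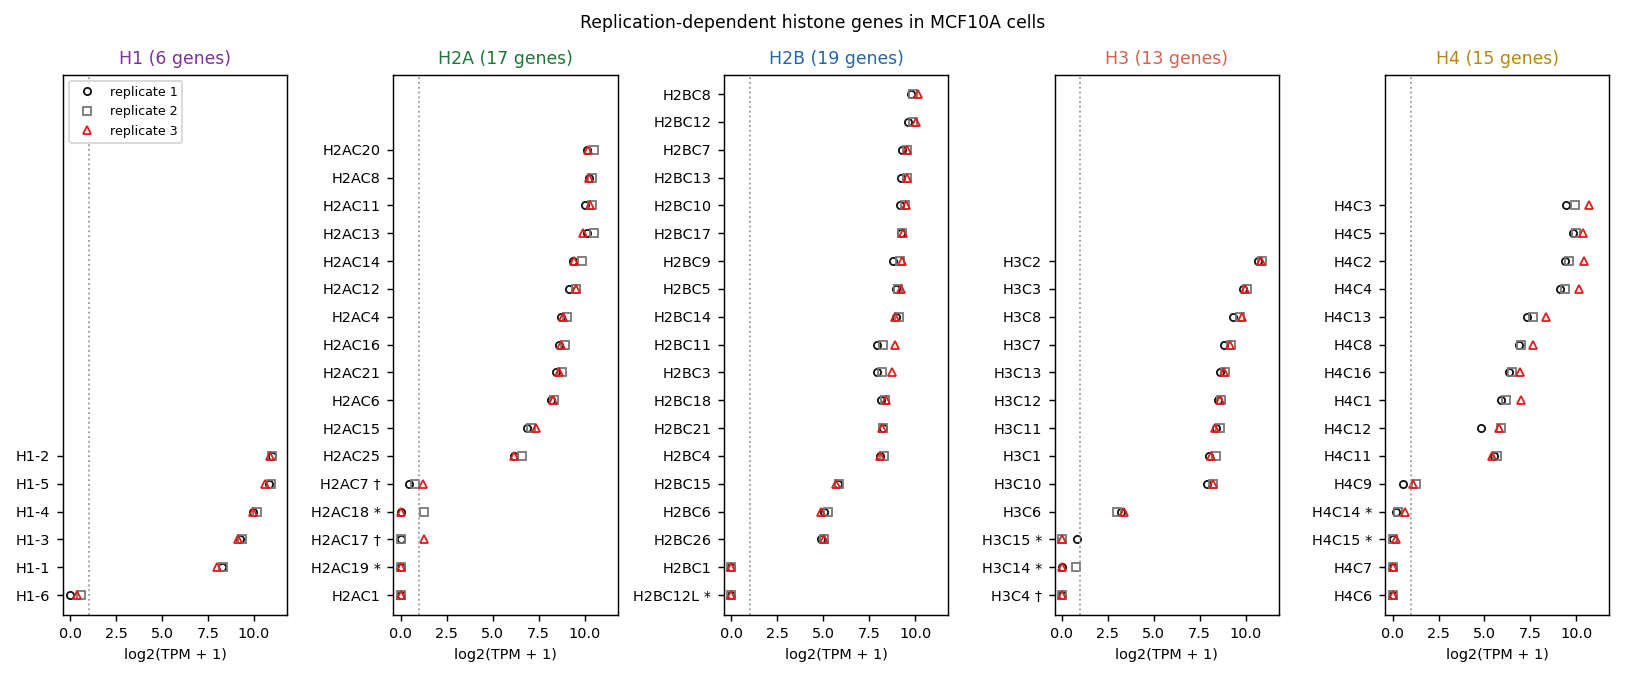
Level of each of the 70 genes as log2(TPM + 1) in each replicate, by histone type and ordered by mean, with a dotted line at 1 TPM, an asterisk for genes without any 50-base stretch that is unique in the genome, and a dagger for genes that share at least 50% of their exon bases with another gene on the same strand. The expressed genes lie between 1.00 and 1965 TPM by mean, 15 genes lie below the line by mean, and replicate 3 is the highest replicate for 8 of the 11 expressed H4 genes.

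The linker histone H1 was the type with the fewest genes, and it held the most abundant transcript. H1-2 was the highest of all 70 genes at 2021, 2016 and 1859 TPM (mean 1965 ± 91.8), and H1-5 came next within H1 at 1826, 1975 and 1563 TPM (mean 1788 ± 209). H1-2 was above H1-5 within each replicate, but the ranges of both genes overlapped. They ranked 37 and 42 among nuclear protein-coding genes, in cells where the chromatin and ribosome assembly factor NPM1 had 1862 ± 184 TPM. H1-4 gave 996, 1163 and 990 TPM, H1-3 601, 640 and 565 TPM and H1-1 308, 318 and 251 TPM. These 3 were separated from each other and from H1-2 and H1-5 in all replicates. H1-6, the H1 of the testis, had 0, 2 and 1 reads and a mean of 0.273 TPM. H1-2 alone made up 34.6% ± 1.38 of H1 TPM.

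Among the 17 H2A genes, 12 were at or above 1 TPM by mean. H2AC20, at 1q21, was the highest at 1140, 1454 and 1185 TPM (mean 1260 ± 170). H2AC8 gave 1192, 1339 and 1226 TPM, H2AC11 1053, 1366 and 1254 TPM and H2AC13 1133, 1436 and 963 TPM. The ranges of these 4 genes overlapped, so their order is not set by these replicates, and H2AC14, at 673, 918 and 675 TPM, lay below all of them. Of the 50-base stretches of H2AC13 and H2AC14, only 36.5% and 33.7% occurred once in the genome, and how the authors' counting treated reads from such repeats is not given in the sources used here. The 5 highest genes held 69.2% ± 1.60 of H2A TPM. The lowest of the 12 was H2AC25, at 1q42, with 71.3, 94.2 and 69.4 TPM.

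The 19 H2B genes were spread more evenly. None of them reached a mean of 1000 TPM and 17 were at or above 1 TPM, from 30.9 to 984 TPM. H2BC8 gave 864, 937 and 1152 TPM and H2BC12 795, 943 and 1044 TPM, and these ranges overlapped. H2BC7 (625, 758 and 764 TPM), H2BC13 (594, 756 and 745 TPM) and H2BC10 (570, 691 and 726 TPM) lay below both and overlapped with each other. In all 5 of them replicate 1 was the lowest. Only 42.8% of the 50-base stretches of H2BC12 were unique in the genome, so its level is less certain. The 5 highest genes held 50.5% ± 0.709 of H2B TPM, a smaller share than in H2A in each replicate (49.7%, 50.8% and 51.0% against 70.1%, 70.2% and 67.4%).

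For H3, a single gene led by a margin wider than the replicates. H3C2 gave 1639, 1895 and 1832 TPM (mean 1788 ± 133), H3C3 913, 1069 and 980 TPM and H3C8 639, 815 and 875 TPM. The ranges of these 3 genes did not overlap, nor did that of H3C7, which followed at 457, 597 and 566 TPM. H3C13, the only expressed H3 gene on chromosome 1, gave 384, 460 and 452 TPM and overlapped with H3C7. H3C2 made up 30.7% ± 0.601 of H3 TPM.

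In the deposited values H4 levels were concentrated in 4 genes, and they varied more between replicates than those of the other types. H4C3 gave 696, 980 and 1625 TPM, H4C5 891, 1009 and 1334 TPM, H4C2 673, 771 and 1343 TPM and H4C4 550, 669 and 1139 TPM. Replicate 3 was the highest for each of these genes, and their order changed between replicates, with H4C5 above H4C3 in replicates 1 and 2 and below it in replicate 3. H4C13, at 156, 202 and 323 TPM, came next and lay below the 4 others. Those 4 genes held 85.6% ± 0.575 of H4 TPM, and 70.2% ± 1.38 with the length of the canonical transcript, when H4C8 (776 TPM) and H4C16 (446 TPM) passed H4C13 and H4C8 overlapped with H4C4. All but 1 of the 15 H4 genes code for the same protein of 103 residues, and the exception, H4C7, codes for 98 residues and was listed at 0. The 11 expressed H4 genes thus code for an identical protein at levels from 1.00 to 1101 TPM. The lower end is H4C9, which had only 1, 3 and 2 reads. For H4C11 and H4C12 only 7.94% and 7.40% of the 50-base stretches were unique in the genome, so their levels are less certain.

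Summed over genes, H2A and H2B held the largest shares of histone TPM and H4 the smallest. H2A gave 7407, 9274 and 7870 TPM, H2B 6938, 8034 and 8690 TPM, H3 5221, 6271 and 5990 TPM, H1 5751, 6112 and 5228 TPM and H4 3296, 4025 and 6310 TPM. The mean shares were 25.5% ± 2.24 for H2A, 24.5% ± 0.866 for H2B, 18.1% ± 0.522 for H3, 17.9% ± 2.39 for H1 and 14.0% ± 3.92 for H4. H2A and H2B were above H1 and H3 in every replicate. The order of H2A and H2B depends on annotated length. With the length of the canonical transcript H2B was above H2A in every replicate, at 9796, 11276 and 11864 TPM against 8207, 10187 and 8710 TPM. H4 was the lowest type in replicates 1 and 2, at 11.5% and 11.9%, but in replicate 3 it took 18.5% and was above H1 and H3. With 3 replicates an exact permutation test of paired differences cannot reach p = 0.05, so these orders are given by overlap and not by a test.

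**Figure D2:**
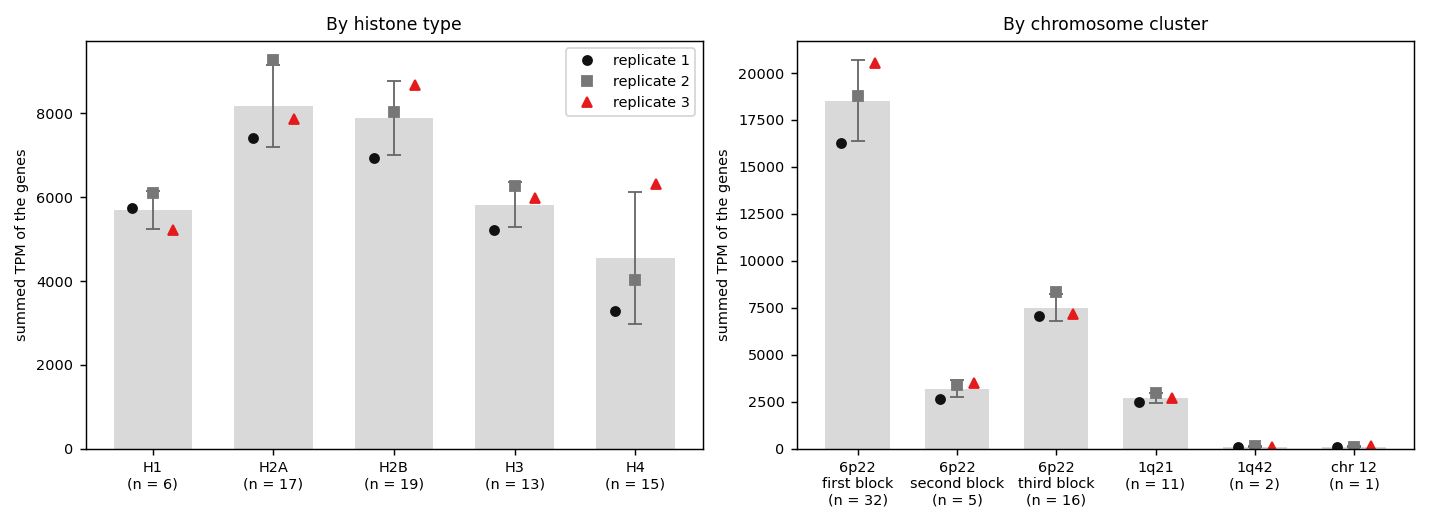
Summed TPM of the genes of each histone type and of each chromosome cluster, with the mean (bar), the SD over 3 replicates (error bar) and each replicate (points). H4 in replicate 3, at 6310 TPM, lies far above replicates 1 and 2, and the first block of 6p22 holds more TPM than all other clusters together in each replicate.

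By position, chromosome 6 gave 90.9% ± 0.526 of the summed TPM and chromosome 1 gave 8.76% ± 0.573. Within chromosome 6, the first block held 57.6% ± 2.35, the third block 23.4% ± 2.15, and the second block 9.87% ± 0.502, and H2AC1 and H2BC1 were listed at 0. The second block held more TPM than the whole of 1q21 in every replicate (2668, 3367 and 3514 TPM against 2457, 2986 and 2668 TPM). The second block has 5 genes and 1q21 has 11, but 6 of those 11 have no stretch of 50 bases that is unique in the genome, so the numbers of genes cannot be set against the sums. The 1q42 pair gave 100.2, 126 and 101 TPM, and H4C16 on chromosome 12 gave 79.6, 88.5 and 119 TPM.

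In the deposited values, the part of chromosome 1 differed by type. It held 21.1% ± 0.245 of H2A TPM, 8.26% ± 0.586 of H2B TPM and 7.42% ± 0.114 of H3 TPM, with no overlap between H2A and the other 2 types. These shares depend on annotated length and were not computed by type with the canonical transcript. With that length H2BC26 went from 30.9 to 338 TPM, H2BC18 from 317 to 642 TPM and H2AC25 from 78.3 to 248 TPM. H2BC21 had 3509, 3725 and 2922 reads against 2963, 3883 and 2619 for H2AC20. H2BC21 is divided by 2224 bases, and its hairpin lies 1729 bases before the end of that transcript. At 1q21 the expressed genes were H2AC20, H2AC21 (347, 437 and 396 TPM), H3C13, H2BC18 (285, 324 and 342 TPM) and H2BC21 (299, 309 and 293 TPM). The other 6 genes there, H2AC18, H2AC19, H3C14, H3C15, H4C14 and H4C15, were below 1 TPM, and none of their 50-base stretches was unique in the genome. The same kind of limit touches 2 expressed neighbours, since only 27.9% of the stretches of H3C13 and 26.0% of those of H2BC18 were unique. At 1q42, H2BC26 gave 28.9, 31.9 and 31.8 TPM.

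The chromosome of an H3 gene also set which protein it codes for. The 10 H3 genes on chromosome 6 code for an identical protein of 136 residues, known as H3.1, and the 3 genes on chromosome 1 code for H3.2, which differs from it by 1 residue. H3.1 genes gave 4836, 5811 and 5538 TPM and H3.2 genes 385, 460 and 452 TPM, so that H3.1 made up 92.6%, 92.7% and 92.5% of H3 TPM. H3-3A and H3-3B, which code for the replacement histone H3.3 and are expressed throughout the cell cycle from polyadenylated mRNA, summed to 566, 519 and 504 TPM. Of the TPM over all 3 proteins, H3.1 thus took 84.8% ± 1.08, H3.2 6.80% ± 0.159 and H3.3 8.40% ± 1.20, where H3.2 was below H3.3 in each replicate. Of the H3.2 genes, H3C14 and H3C15 have no unique 50-base stretch and H3C13 has 27.9%, so the level of H3.2 and its order against H3.3 are uncertain. H3-3A and H3-3B are divided by their longest transcripts, of 1863 and 2787 bases. Neither another length nor uniqueness was computed for them, so the share of H3.3 is uncertain too.

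In the other types, many genes gave different proteins. The coding sequences of the 17 H2A genes gave 11 proteins and those of the 19 H2B genes gave 15, while each of the 6 H1 genes gave its own. The H2A protein shared by H2AC11, H2AC13, H2AC15, H2AC16 and H2AC17 held 36.3% ± 0.640 of H2A TPM, and that shared by H2AC4 and H2AC8 held 21.1% ± 0.836. These 2 proteins have 130 residues and differ at 2 of them. The H2B protein shared by H2BC4, H2BC6, H2BC7, H2BC8 and H2BC10 held 34.0% ± 0.141 of H2B TPM, and it differs by 1 residue of 126 from that of H2BC12, which held 11.7% ± 0.278.

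A total of 15 genes had a mean below 1 TPM, and they fell into 3 kinds. The genes H2AC18, H2AC19, H2BC12L, H3C14, H3C15, H4C14 and H4C15 have no 50-base stretch that is unique in the genome, so their own level cannot be read from these values. H2AC7, H2AC17 and H3C4 share 85.3%, 71.0% and 96.6% of their exon bases with a neighbouring annotated gene of that strand, which for H2AC17 is H3C12 and for the other 2 is ENSG00000282988, a protein-coding gene without a symbol that spans from H2AC7 to H3C4 (chr6:26195595-26199293, minus strand). That gene itself had 22, 10 and 14 reads. The part of the authors' counting of shared bases in these values was not tested. The 5 genes H1-6, H2AC1, H2BC1, H4C6 and H4C7 are unique in sequence along their whole length and overlap no other gene, and all but H1-6 were listed at 0. For these 4 genes, a count of 0 reads allows up to 0.641 TPM for H2AC1, 1.18 TPM for H2BC1, 1.67 TPM for H4C6 and 1.73 TPM for H4C7 in the shallowest library, by counting error only. The 3 others listed at 0 in every replicate were H2AC19, H2BC12L and H3C4.

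Few genes lay near the cutoff. The replicates fell on both sides of 1 TPM for 4 genes: H2AC7 at 0.373, 0.725 and 1.31 TPM, H2AC17 at 0, 0 and 1.38 TPM, H2AC18 at 0, 1.39 and 0 TPM, and H4C9 at 0.479, 1.40 and 1.13 TPM. Each of these values rests on at most 4 reads, so the genes cannot be placed above or below 1 TPM at this depth. Between H4C9, with a mean of 1.00 TPM, and the next gene above it, H3C6 at 8.25 ± 1.23 TPM, there was no other member of the 70.

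Most H2A and H2B genes of the clusters stand head to head, with a short stretch between their starts from which both are transcribed. The annotation holds 12 such divergent pairs, with 193 to 250 bases between the starts and a median of 237. In 9 pairs both genes were at or above 1 TPM. In the deposited values the H2A gene was higher than its H2B partner in all 3 replicates in 8 of these pairs, and the H2B gene was higher in all 3 only in H2AC12 and H2BC12, a pair named after its values were seen (579, 754 and 739 TPM against 795, 943 and 1044 TPM). With the length of the canonical transcript the count was 5 of 9, since H2BC4, H2BC15 and H2BC26 were then above H2AC6, H2AC15 and H2AC25 in every replicate, so the direction in these 3 pairs depends on the annotated length. The deposited H2A to H2B ratio was 0.746 ± 0.0476 for H2AC12 and H2BC12, where only 42.8% of the stretches of H2BC12 were unique. For H2AC15 and H2BC15 the ratio went from 2.58 ± 0.571 to 0.339 ± 0.0749 with the canonical length. It was 4.18 ± 0.463 for H2AC20 and H2BC21 with either length, but H2BC21 is divided by 2224 bases and its hairpin lies 1729 bases before that end. Over the 9 pairs, the log2 deposited means of both partners had a Pearson r of 0.882 and the means a Spearman rho of 0.6. Both values describe genes that share libraries, and they leave out pairs with a gene below 1 TPM. They were not computed with the length of the canonical transcript. That length moves the lowest H2B partners, H2BC26 and H2BC15, from 30.9 and 53.6 TPM to 338 and 409 TPM, so a close relation of partners is not shown.

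**Figure D3:**
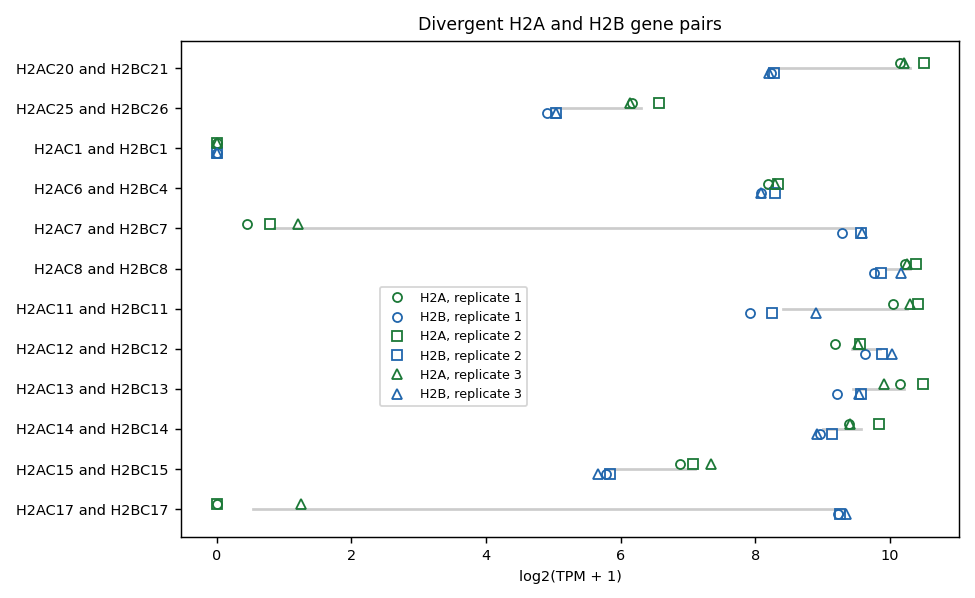
Level as log2(TPM + 1) of the H2A gene (green) and the H2B gene (blue) of each of the 12 divergent pairs, with a symbol for each replicate and a grey line between the means. H2AC7 and H2AC17 lie at or below 1.38 TPM while their partners lie above 600 TPM, and in 8 of the 9 pairs with both genes expressed the H2A symbols lie to the right, which holds for 5 with the length of the canonical transcript.

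In 2 pairs the genes differed by more than 5-fold in every replicate. H2BC7 gave 625, 758 and 764 TPM, whereas H2AC7 had 1, 2 and 3 reads. H2BC17 gave 601, 614 and 652 TPM, whereas H2AC17 had 0, 0 and 3 reads. H2AC7 and H2AC17 are the H2A genes with shared exon bases described above, and the part of that sharing in the difference was not tested. Both H2A genes have an exact hairpin of the most common kind.

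The stretch between the starts is printed for H2AC7 and H2BC7, of which only the H2B gene was high, and for H2AC8 and H2BC8, a pair of the same block in which both genes were high, so that the letters can be compared. Each runs 5′ to 3′ from the base next to the H2B start to the base next to the H2A start, and capitals mark the motif ATTTGCAT, the motif called CCAAT and the TATA box TATAAA on either strand.
H2AC7 and H2BC7 (chr6:26199294-26199515, minus strand): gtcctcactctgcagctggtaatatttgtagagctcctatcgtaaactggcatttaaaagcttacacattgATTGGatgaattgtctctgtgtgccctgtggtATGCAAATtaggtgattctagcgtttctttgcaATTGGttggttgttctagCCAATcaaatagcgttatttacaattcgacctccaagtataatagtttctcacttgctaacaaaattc
H2AC8 and H2BC8 (chr6:26216689-26216920, plus strand): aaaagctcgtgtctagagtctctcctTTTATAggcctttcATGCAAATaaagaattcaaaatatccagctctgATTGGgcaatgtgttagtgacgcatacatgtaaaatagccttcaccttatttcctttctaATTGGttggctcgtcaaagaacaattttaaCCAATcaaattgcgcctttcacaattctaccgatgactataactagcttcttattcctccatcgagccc
Both stretches hold 3 CCAAT and 1 ATTTGCAT. H2AC8 and H2BC8 have 1 TATAAA, on the side of H2BC8, whereas H2AC7 and H2BC7 have none. The stretch of H2AC17 and H2BC17, the other pair with a low H2A gene, holds 1 TATAAA, and those of H2AC25 and H2BC26 and of H2AC15 and H2BC15, with both genes expressed, hold 0. Of the 12 pairs, 9 had ATTTGCAT between their starts.

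In promoters, the motifs differed by histone type. TATAAA is a form of the TATA box, CCAAT is bound by the factor NF-Y, ATTTGCAT is the octamer bound by POU2F1 (Oct-1), and AAACACA is an element known from H1 promoters. RefSeq promoters on GRCh38.p14, each of 300 bases from 250 before to 50 after the gene start, were found for 64 of the 70 genes and not for H2BC12L, H4C1, H3C12, H2AC12, H4C3 and H3C11. On either strand, CCAAT was found in 84.4% of the 64 against 34.6% of all 35116 promoters, TATAAA in 65.6% against 11.5%, ATTTGCAT in 40.6% against 1.77% and AAACACA in 14.1% against 5.64%. CCAAT was present in all 6 H1, 16 H2A, 18 H2B and 11 H3 promoters but in 3 of 13 H4 promoters. TATAAA was present in 3 of 6 H1, 12 of 16 H2A, 12 of 18 H2B, 8 of 11 H3 and 7 of 13 H4 promoters. ATTTGCAT was present in 14 of 18 H2B and 11 of 16 H2A promoters, many of which cover the same stretch from both sides, in 1 of 11 H3 promoters and in none of H1 or H4. AAACACA was present in all 6 H1 promoters, in 2 of H3, in 1 of H2A and in none of H2B or H4.

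The 130 bases before the start are shown for the highest H1 and H4 genes with a promoter entry, as examples of both kinds, with motifs in capitals.
H1-2 (chr6:26056471-26056600, minus strand): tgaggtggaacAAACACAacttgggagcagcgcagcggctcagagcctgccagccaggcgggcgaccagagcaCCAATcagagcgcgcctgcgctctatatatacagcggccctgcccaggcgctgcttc
H4C5 (chr6:26204480-26204609, plus strand): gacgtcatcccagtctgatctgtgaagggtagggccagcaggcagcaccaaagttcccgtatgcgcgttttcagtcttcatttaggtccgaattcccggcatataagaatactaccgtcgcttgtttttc
H1-2, the highest gene of all, has AAACACA and CCAAT and no TATAAA in these bases, and H4C5, with a mean of 1078 TPM, has none of the 4 motifs. The motifs were also found in genes with low values. Of the 14 promoters of genes below 1 TPM, 11 held CCAAT, 8 TATAAA and 5 ATTTGCAT. Most of these genes have no unique stretch or share exon bases, so their low values are uncertain. Only H1-6, H2AC1, H2BC1, H4C6 and H4C7 are free of both limits. Of these, all but H4C7 held CCAAT, H2AC1, H2BC1 and H4C7 held TATAAA, and H2AC1 and H2BC1 held ATTTGCAT.

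Differences between replicates were larger than counting error for most of the genes, as for other abundant genes. By a chi-square test of reads against equal TPM over all 3 replicates, 49 of the 54 genes with at least 15 reads in all differed after Benjamini-Hochberg adjustment, against 54.3% of all genes tested and 92.7% of nuclear protein-coding genes with at least 100 TPM. Over the 55 expressed genes log2(TPM + 1) had a median SD of 0.19, and over the H4 genes it was 0.53.

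The H4 genes were the ones that differed most in replicate 3, the library that stood apart. The log2 ratio of replicate 3 to the mean of replicates 1 and 2, on the TPM + 1 scale, had a median of -0.23 over 11347 expressed nuclear protein-coding genes and of 0.10 over the 55 expressed histone genes. By type it was 0.73 for H4, 0.14 for H2B, 0.08 for H3, -0.04 for H2A and -0.14 for H1. Measured against the median of all genes, these are differences of 0.95, 0.37, 0.30, 0.18 and 0.09, and 49 of the 55 genes were above that median. With TPM rescaled to nuclear protein-coding genes the medians of H1 and H2A turned to 0.07 and 0.16, those of H2B, H3 and H4 kept their sign, and the median of all genes was -0.04. Replicate 3 was above both other replicates for 21 of the 55 genes, against 5.84% of expressed nuclear protein-coding genes. These were 8 of 11 H4, 10 of 17 H2B, 2 of 10 H3, 1 of 12 H2A and 0 of 5 H1 genes, while all 5 H1 genes were lowest in replicate 3.

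**Figure D4:**
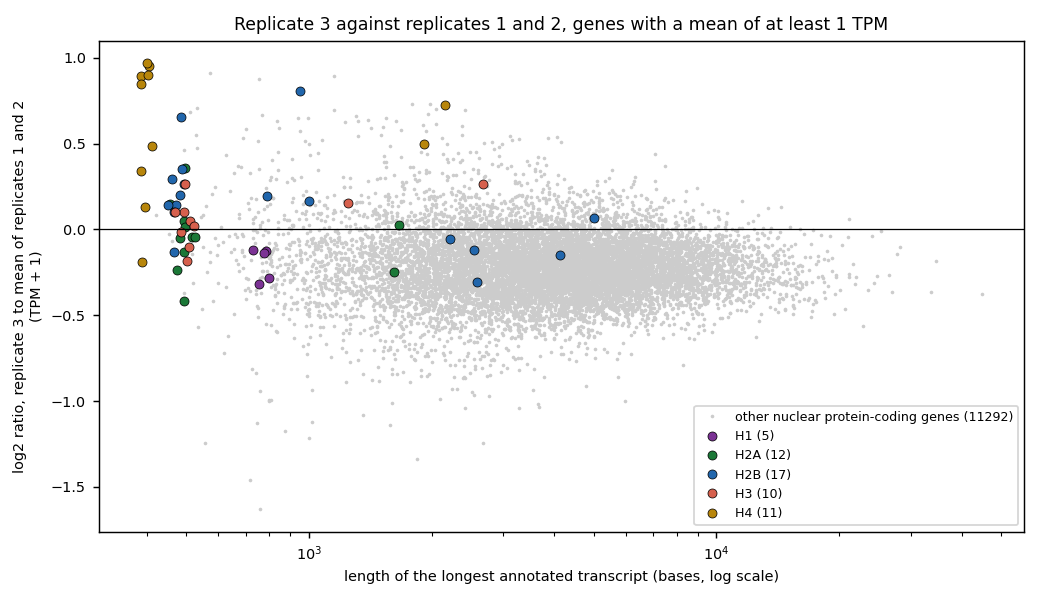
Log2 ratio of replicate 3 to the mean of replicates 1 and 2 on the TPM + 1 scale (vertical) against the length of the longest annotated transcript in bases (horizontal, log scale), for expressed histone genes by type (colours) and 11292 other expressed nuclear protein-coding genes (grey). The grey points center on -0.23, and H4 genes reach 0.97 at lengths near 400 bases where hardly any other gene lies.

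Transcript length among other genes and 2 small RNAs moved with this pattern, but length within H4 did not. RN7SL1 and RMRP, short RNAs without a poly(A) tail, were also highest in replicate 3, RMRP at 20203 TPM against 5108 and 6573 TPM. By canonical transcript the H4 mRNAs, of 386 to 412 bases, are the shortest of the histone mRNAs, and only 1 other expressed protein-coding gene had a length from 401 to 450 bases, with a ratio of 0.08. Among other genes the median ratio was 0.11 over the 7 of 451 to 500 bases, -0.10 over the 24 of 501 to 600 bases, -0.17 over the 261 of 601 to 1000 bases and -0.23 over the 9561 above 2000 bases. At 451 to 500 bases the H2A genes had a median of -0.02 (range -0.41 to 0.36, n = 8). The H2B genes of that length had a median of 0.20 (range -0.13 to 0.66, n = 9), so the ranges overlapped. By longest transcript, the 5 expressed H4 genes of up to 400 bases had a median of 0.34, and the 4 of 401 to 450 bases had 0.93. Among the 5 are H4C9, with few reads, and H4C11 and H4C12, with few unique stretches. H4C8 and H4C16 had ratios of 0.73 and 0.50. Their longest transcripts have 2163 and 1918 bases, but their canonical transcripts have 409 and 412 bases, like those of the other H4 genes. The part of length in the level of H4 in replicate 3 was not tested.

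Annotated length bears on the levels themselves. The deposited values divide by the longest annotated transcript, whichever form the cells made, and transcript forms were not measured here. With the length of the canonical transcript in its place, H2BC26 went from a mean of 30.9 to 338 TPM, H2BC15 from 53.6 to 409 TPM, H2BC4 from 285 to 1578 TPM, H4C8 from 147 to 776 TPM, H4C16 from 95.9 to 446 TPM, H2AC6 from 309 to 990 TPM and H2AC25 from 78.3 to 248 TPM. H2BC4 then passed H2BC8, the highest H2B gene in the deposited values, H2AC6 passed H2AC14, and H3C10, at 717 ± 94.9 TPM, passed H3C7. H2BC26, H4C16 and H2AC25 follow the rule for named genes, and the others were named after their values were seen.

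Genes that act on histone genes, histone mRNA or free histones were nearly all expressed, and apart from NPM1 none had a mean above 298 TPM. Of 9 transcription genes 8 were above 1 TPM, among them NPAT, the coactivator of histone genes that cyclin E and CDK2 phosphorylate, at 23.2 ± 2.75 TPM, and POU2F1 at 12.3 ± 1.94 TPM. POU2AF1, a lymphoid coactivator, was listed at 0. Of 10 genes for the formation of the mRNA 3′ end 9 were above 1 TPM, led by SLBP at 149, 141 and 130 TPM. RNU7-1, the U7 RNA itself, has 63 bases and was listed at 0, as were the abundant RNAs RN7SK and RPPH1, so these values are not read as a lack of expression. All 6 genes for histone mRNA decay were above 1 TPM, among them UPF1 at 93.7 ± 15.9 TPM and ERI1, the exonuclease that trims the hairpin end, at 23.4 ± 0.649 TPM. All 13 chaperone genes were above 1 TPM, from HIRA, the H3.3 chaperone, at 6.17 ± 0.739 TPM to NPM1, with SUPT16H of the FACT complex at 298 ± 39.4 TPM and CHAF1A of the CAF-1 complex at 83.9 ± 5.38 TPM. Of the 36 expressed genes of these 4 lists, replicate 3 was the highest in 0, against 5.84% of expressed nuclear protein-coding genes and 21 of the 55 expressed histone genes. The longest transcripts of the 36 have at least 1006 bases. Among other genes replicate 3 was the highest in 146 of 1438 of 1001 to 2000 bases and 429 of 9561 above 2000 bases. The 0 is therefore not read as a trait of these lists.

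Among histone genes outside the rule, 18 of 20 were found by symbol and 11 were above 1 TPM. The highest was H2AZ1, which codes for the variant H2A.Z, at 784, 712 and 647 TPM, followed by H3-3B at 501, 462 and 442 TPM and H2AX, the variant that is phosphorylated at DNA breaks, at 300, 333 and 245 TPM. H2AX overlapped with H2AC6 and H1-1, and H2AZ1 overlapped with H2AC14. MACROH2A1 had 120 ± 15.2 TPM, H1-10 had 101 ± 13.3 TPM and the centromeric H3 gene CENPA 60.4 ± 9.63 TPM. The summed TPM of the 5 expressed replication-dependent H1 genes was far above that of H1-10 in each replicate.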

How the data were processed

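RNA-seq was measured in 3 replicates of MCF10A cells with an empty vector. The values that the authors deposited are TPM, for 62754 genes. The libraries were depleted of ribosomal RNA, and the submitters' processing notes name fastp, STAR, MultiQC and hg38 (GRCh38.p14). The annotation release, the length used for TPM and the use of strand or of repeated matches are not given in the sources used here. GENCODE release 44 holds 62700 of the genes by Ensembl identifier.

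TPM was multiplied by the length of the longest transcript (1 base less for each exon), and the smallest product above 0 in a replicate was used as the unit. This gave whole numbers within 0.01 for 100% of annotated genes, which were taken as reads, and depth rests on this step being 1 read. A count of 0 was given the limit of 3 reads. Levels are means ± SD of TPM over 3 replicates, and log2 values use a pseudocount of 1. Reads of genes with at least 15 reads in all were tested against equal TPM by a chi-square test, adjusted by Benjamini-Hochberg over 15802 genes, with a threshold of 0.05. It covers counting error only and was tested on simulated data. Uniqueness is the share of 50-base stretches of the canonical transcript that occur once in hg38 without alternate sequences. Promoter sequences are from RefSeq on GRCh38.p14.

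The genes and lists were chosen with earlier results of these data known. Named were the H1 genes, the 5 highest genes of each other type, every gene outside chromosome 6, genes on both sides of 1 TPM, genes at 0 by name, and divergent pairs that differ at least 5-fold in every replicate. Listed partners, neighbours in rank or length and carriers of a sequence were named beyond this rule, after their values were seen. Alternatives were the cutoff, the median, the pseudocount, no filter on low values, TPM rescaled to nuclear protein-coding genes, canonical length, leaving out 10 genes with shared sequence, the read minimum, and leaving out each replicate in turn. The work was done in Python 3.11.15 (numpy 2.4.6, numba 0.67.0, pandas 2.3.3, matplotlib 3.10.9 and scipy 1.17.1).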

Additional observations from a re-analysis of the deposited data

How the results depend on the processing

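No paired analysis was possible because only 1 condition was sampled. Of 95 alternative values, 82 stayed within the spread between replicates or within 1.5 times the count, and 13 moved. Many of the 82 could not have moved. For a sum or share, leaving out a replicate or taking the median cannot exceed the SD over the 3 replicates. The 10 genes with shared sequence were all below 1 TPM, so leaving them out hardly changes a sum or share. The count of 82 is therefore no measure of stability. With the length of the canonical transcript the summed TPM was 37486, the median level 642 TPM, the shares of H1, H2B and H3 15.3%, 29.3% and 16.8%, those of chromosomes 6 and 1 89.2% and 9.65%, and that of H3.1 in H3 93.2%. The share of H2A was then 24.1%, within its spread but below that of H2B. Also with that length, in alternatives chosen after seeing the data, the H2A gene led in 5 instead of 8 pairs and the 4 highest H4 genes held 70.2% of H4 TPM. Rescaled to nuclear protein-coding genes, the sum was 39969, the median level 560 TPM, and the median log2 ratio of replicate 3 was 0.28 over all expressed members and 0.93 over H4. Without a filter on low values that of H4 was 0.49, since genes at or near 0 then enter the median.

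Leaving out each replicate in turn gave 54 to 56 genes at or above 1 TPM, a sum of 31164 to 33902 TPM, a median level of 465 to 490 TPM, a median SD of 0.14 to 0.17, and 35 to 39 genes that differed between replicates. The shares were 16.7% to 19.1% for H1, 24.5% to 26.7% for H2A, 24.0% to 24.9% for H2B, 17.9% to 18.4% for H3, 11.7% to 15.2% for H4, 90.6% to 91.2% for chromosome 6, 8.53% to 9.08% for chromosome 1 and 92.5% to 92.6% for H3.1. The lowest share of H4, 11.7%, came without replicate 3. Depth limits the genes with 0 to 4 reads, and identical copies cannot be told apart.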
